A study of Homo sapiens with 24 samples.

Results

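Aminoacyl-tRNA synthetases charge each tRNA with its amino acid before translation. Human cells keep separate nuclear-encoded sets for the cytosol and for the mitochondrion, where the tRNAs themselves come from mitochondrial DNA (mtDNA). The 32 genes described here were taken from a list of 35 by symbol: those ending in 2 are mitochondrial and the others cytosolic, while GARS1 and KARS1 make the enzyme of both compartments. Their signals came from a microarray on which 19775 genes had a probe set (a group of probes for a transcript) with a single gene symbol. There were 15 cytosolic and 15 mitochondrial genes plus GARS1 and KARS1, which are counted with the cytosolic class below, making 17. The remaining 3 listed genes, MARS1, QARS1 and TARS2, lie only on probe sets that also carry a microRNA symbol, and they were not analysed here. The brightest probe set stood for each gene, and all 32 passed the filter on low signal in both cell lines.

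The study asked how nuclear transcription changes as mtDNA is lost, and it used 24 arrays in 8 groups of 3 cultures. HEK293 is a human embryonic kidney line, and all 18 HEK293 cultures carried a Tet-on transgene for DN-POLG, a dominant-negative form of the mtDNA polymerase POLG, which stops mtDNA replication when doxycycline (10 ng/mL) is present. DN-POLG cells were taken before doxycycline (day 0) and on day 3, day 6 and day 9. A derivative that also expresses AOX, an alternative oxidase, and NDI1, a yeast NADH dehydrogenase, which together let electrons pass without the mtDNA-encoded respiratory complexes, was sampled at day 9 and day 0. The last groups are 143B rho0, an osteosarcoma line without mtDNA after chronic ethidium bromide, and its parental line 143B rho+. All HEK293 cultures grew in high-glucose medium with uridine and pyruvate; day 6 pooled 2 flasks and day 9 pooled 4 flasks per culture. Each 143B group is a single line, so loss of mtDNA and other differences between the lines cannot be told apart there.

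Signals are in arbitrary MAS5 units scaled to the same mean on every array, and differences are log2 fold changes from limma, a linear model fitted across all probe sets. A gene passed where its p-value, adjusted by Benjamini-Hochberg over all probe sets tested, was at most 0.05. In bulk cultures, fewer cells and less RNA per cell cannot be told apart.

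A few facts of the whole series bear on the values below. The transgene was seen on 1 of 3 probe sets for POLG, chosen after its values were seen, which read 2834 to 4739 at DN-POLG day 9 against 280 to 421 at day 0. It read 447 to 4035 in AOX/NDI1 day 9 cells against 197 to 274 at day 0, the lowest being replicate 3. Of 7 mtDNA transcripts tested, 3 passed as lower at day 9 in DN-POLG cells, where all 7 had negative changes. In AOX/NDI1 cells at day 9, 3 passed as lower and 6 had negative changes, and in 143B rho0 cells all 7 passed as lower. The shares of all genes that passed as lower were 6.65%, 10.6% and 5.51%. Replicate 3 of AOX/NDI1 day 9 had an ATP6 signal of 3797, within the other day 9 cultures. The ACTB 3′ to 5′ ratio, a sign of RNA quality, was 8.92 in replicate 1 of DN-POLG day 6 and between 1.05 and 1.81 in the other 17 HEK293 arrays. It was 5.53 to 8.12 in 143B rho0 and 10.4 to 17.1 in rho+ arrays. Of 6 markers of HEK293 cells, 4 passed the signal filter in HEK293, LHX1 and NEFM did not, and EYA1 fell by 1.73 on the log2 scale at DN-POLG day 9. All 7 markers of 143B cells passed the filter in 143B, where S100A4 was higher by 2.89 and LOX lower by 1.61 in rho0 cells. CD44 and RUNX2 were above every HEK293 array in every 143B array; the other 5 overlapped. Of the HEK293 markers, INA was above in every HEK293 array, while CDH2 was above in every 143B array (4098 to 8735 against 1063 to 3279).

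Activating transcription factor 4 (ATF4) is known to switch on several cytosolic synthetase genes during amino acid shortage, through C/EBP-ATF response elements, for which TGATGNAA is a common core. RefSeq promoters of the GRCh38.p14 build, 250 bases before to 50 after the transcript start, were held for 27 of the 32 genes, and the motif was searched on both strands. It was present in 6 of 14 cytosolic and 1 of 13 mitochondrial genes with a promoter, against 3.62% of all 35116 promoters and 4.46% of 27305 genes. The stricter TGATGCAA, chosen after the first search, was in 5 of 14 cytosolic and 0 of 13 mitochondrial genes, against 1.08% of all genes. These counts describe letters in a window and do not show binding. The stretches of 50 bases that hold the motif are shown because CARS1, GARS1 and NARS1 are among the genes whose signals passed below. Each reads 5′ to 3′ along its gene, with the motif, in either orientation, in capitals:
CARS1: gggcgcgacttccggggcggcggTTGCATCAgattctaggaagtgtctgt
GARS1: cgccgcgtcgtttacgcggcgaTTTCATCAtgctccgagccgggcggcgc
NARS1: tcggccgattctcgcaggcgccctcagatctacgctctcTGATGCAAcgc
AARS1: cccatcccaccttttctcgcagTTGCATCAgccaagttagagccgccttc
IARS1: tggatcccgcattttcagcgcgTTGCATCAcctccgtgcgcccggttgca
TARS1: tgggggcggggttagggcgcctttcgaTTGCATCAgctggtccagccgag
YARS2: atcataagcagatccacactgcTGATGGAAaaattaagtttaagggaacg

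The CARS1 stretch is chr11:3057399-3057448 (minus strand), that of GARS1 chr7:30594823-30594872 (plus) and that of NARS1 chr18:57621812-57621861 (minus). AARS1 lies at chr16:70289666-70289715 (minus) and IARS1 at chr9:92293683-92293732 (minus). TARS1 lies at chr5:33440940-33440989 (plus) and YARS2 at chr12:32756067-32756116 (minus). The motif spans the transcript start in CARS1, from position -2 to 6, and lies just inside the transcript in TARS1 (3 to 10) and NARS1 (15 to 22). It lies shortly before the start in IARS1 (-13 to -6) and GARS1 (-33 to -26), and farther off in AARS1 (-187 to -180) and YARS2 (-197 to -190). These positions count from the start of the promoter entry that held the motif. CARS1, GARS1 and TARS1 each had 2 entries. The annotated genes GARS1 (from chr7:30594735) and TARS1 (from chr5:33440696) begin upstream of the motif, which there lies inside the gene. The windows of SARS1 and WARS1, which also passed below, did not hold these letters. YARS1, which passed too, had no entry among the promoters and was not searched. AARS1, IARS1, TARS1 and YARS2 hold the motif but did not pass at DN-POLG day 9 on their brightest probe sets.

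At day 9 of mtDNA depletion, DN-POLG cells had higher signals of 6 of 17 cytosolic synthetases than at day 0: SARS1, GARS1, YARS1, WARS1, CARS1 and NARS1. Of the 15 mitochondrial synthetases, none was higher and 1, PARS2, was lower. Over all 11723 genes tested, 8.02% were called, 1.37% higher and 6.65% lower. The median log2 fold change was 0.48 over the cytosolic class, 0.06 over the mitochondrial class and 0.00 over all genes.

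SARS1, the seryl-tRNA synthetase, read 11770, 9494 and 8160 at day 9 against 4390, 5212 and 4732 at day 0. The lowest day 9 culture was above the highest day 0 culture, and the log2 fold change was 1.02 (standard error, SE, 0.22, adjusted p = 0.00859). Its other probe set gave 1.05 (adjusted p = 0.0200). The call held without any single array of either group (adjusted p = 0.0125 to 0.0415).

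GARS1, which charges glycine in the cytosol and, from an alternative start, in mitochondria, read 11922, 8827 and 9763 at day 9 against 4539, 6561 and 4728 at day 0. The groups did not overlap, and the log2 fold change was 0.96 (SE 0.22, adjusted p = 0.0129). Its single probe set cannot separate the forms of the enzyme. KARS1, the lysyl enzyme, whose forms arise by splicing, read 26886, 22043 and 23963 at day 9 against 21332, 30940 and 18188 at day 0. These values overlapped and the change was 0.08 (95% interval -0.44 to 0.60).

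YARS1, the tyrosyl enzyme, read 12478, 10014 and 11022 at day 9 against 5189, 6161 and 5668 at day 0 (log2 fold change 0.98, SE 0.25, adjusted p = 0.0204). A dimmer YARS1 probe set gave 0.39 (adjusted p = 0.772), so the probe sets differ. CARS1, for cysteine, read 10074, 7672 and 8139 against 4866, 5330 and 4668, a change of 0.79 (adjusted p = 0.0303). A second CARS1 probe set also passed, at 0.81 (adjusted p = 0.0372). All day 9 values of these genes were above all day 0 values.

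WARS1, the tryptophanyl enzyme, which interferon also induces, read 5945, 4948 and 4479 at day 9 against 2171, 2810 and 3288 at day 0, a change of 0.91 (adjusted p = 0.0375). NARS1, for asparagine, read 21175, 17381 and 17948 against 12589, 13234 and 12158, a change of 0.57 (adjusted p = 0.0301). Neither gene's groups overlapped.

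**Figure D1:**
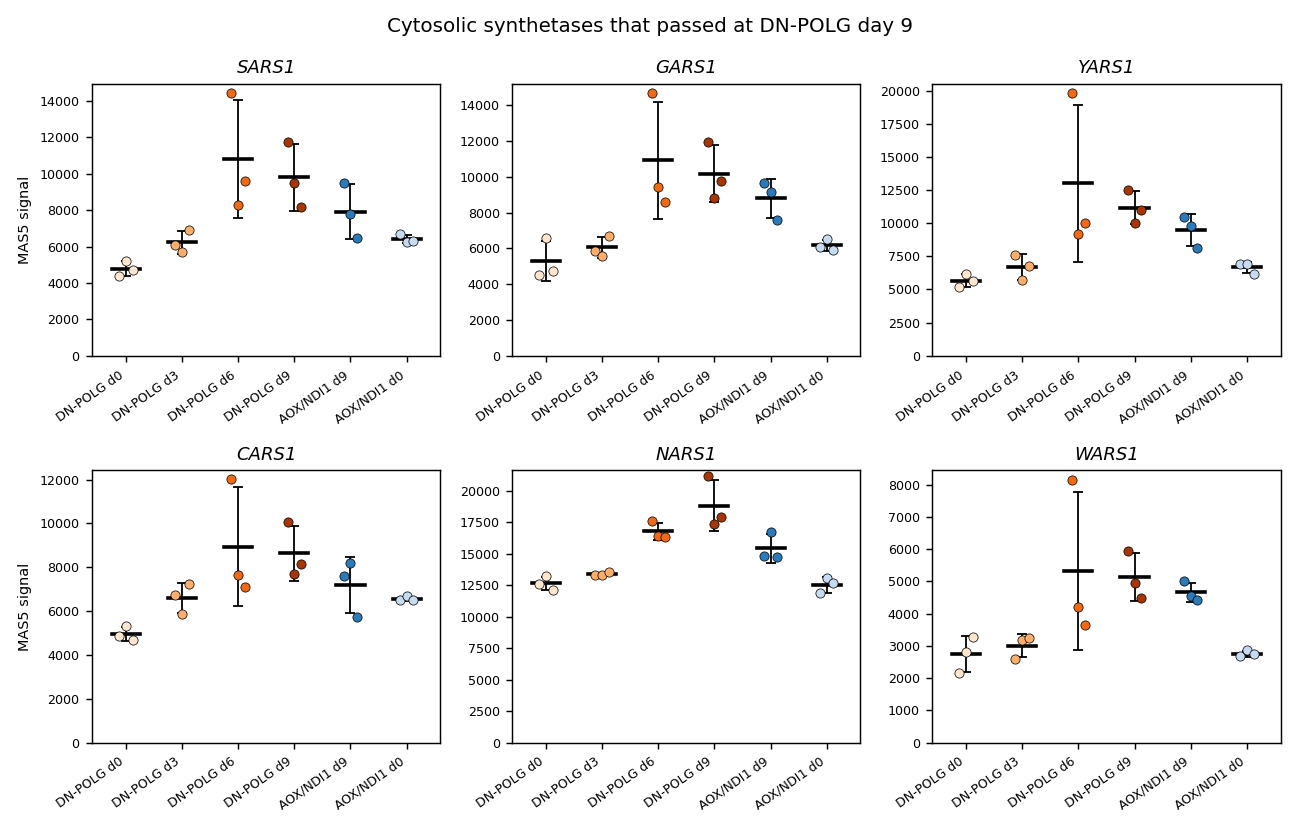
MAS5 signal (arbitrary units, axis from 0) of the 6 cytosolic synthetases that passed at DN-POLG day 9, in the 6 HEK293 groups (d, day). Points are the 3 cultures, horizontal lines the mean and whiskers the SD; SARS1 read 8160 to 11770 at DN-POLG day 9 against 4390 to 5212 at day 0, and replicate 1 of day 6 is the high point in most panels.

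Calls other than SARS1 were lost without certain arrays. CARS1, NARS1 and WARS1 each lost theirs in 5 of the 6 leave-outs, with adjusted p up to 0.118 for CARS1, 0.122 for NARS1 and 0.142 for WARS1. YARS1 lost it in 3 of 6 and GARS1 in 2 of 6. With every array, 161 genes were higher and 779 lower among all genes. Without replicate 1 of day 0, 2 members passed (148 higher and 567 lower among all genes). Likewise 2 passed without replicate 1 of day 9 (99 and 597). Without replicate 2 of day 9, 3 passed (94 and 542), and without replicate 3 of day 9 also 3 (78 and 407). GARS1 then had adjusted p = 0.0532 and 0.0587 without replicate 1 of day 0 and of day 9. With the replicate number as a block, CARS1 (adjusted p = 0.0526), NARS1 (0.0832) and WARS1 (0.0886) did not pass, while SARS1, GARS1, YARS1 and PARS2 did. Without replicate 1 of DN-POLG day 6, whose spread enters the model, 8 passed, the eighth being EPRS1 at 0.76 (adjusted p = 0.0246), and 11.9% of all genes did. This last setting was chosen after seeing the data.

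Of the cytosolic enzymes measured, EPRS1, IARS1, LARS1, KARS1 and RARS1 are known to sit in a multi-synthetase complex. The 12 others include all 6 that passed, and the grouping was made after their values were seen. In the complex members the log2 fold change at day 9 ran between -0.47 for RARS1 and 0.76 for EPRS1. EPRS1, which charges glutamate and proline, did not pass on its brightest probe set (adjusted p = 0.0838) but did on another, at 0.84 (adjusted p = 0.0210). LARS1, for leucine, likewise passed only on a dimmer probe set, at 0.65 (adjusted p = 0.0492). So did TARS1, for threonine, at 1.33 (adjusted p = 0.00127), against 0.30 on its brightest. AIMP1, the only one of 3 scaffold proteins of the complex that was tested, changed by 0.49 without passing.

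PARS2, the mitochondrial prolyl-tRNA synthetase, read 55.6, 6.7 and 41.7 at DN-POLG day 9 against 183, 242 and 218 at day 0. All 3 day 9 signals lay under the filter signal of 66.9, so the size of the fall is uncertain. The log2 fold change was -3.09 (SE 0.79, adjusted p = 0.0222). It dropped by 2.15 without replicate 2 of day 9, the lowest culture (adjusted p = 0.110), and the call was also lost without replicate 3 of day 0 (adjusted p = 0.0558). In AOX/NDI1 cells PARS2 read 68.2, 4.6 and 45.2 at day 9 against 191, 161 and 216 at day 0, and it again passed, with -2.96 (adjusted p = 0.0219). Without replicate 2 of AOX/NDI1 day 9 it was -1.76 (adjusted p = 0.0838), and it also missed the threshold without any 1 of the 3 day 0 arrays.

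**Figure D2:**
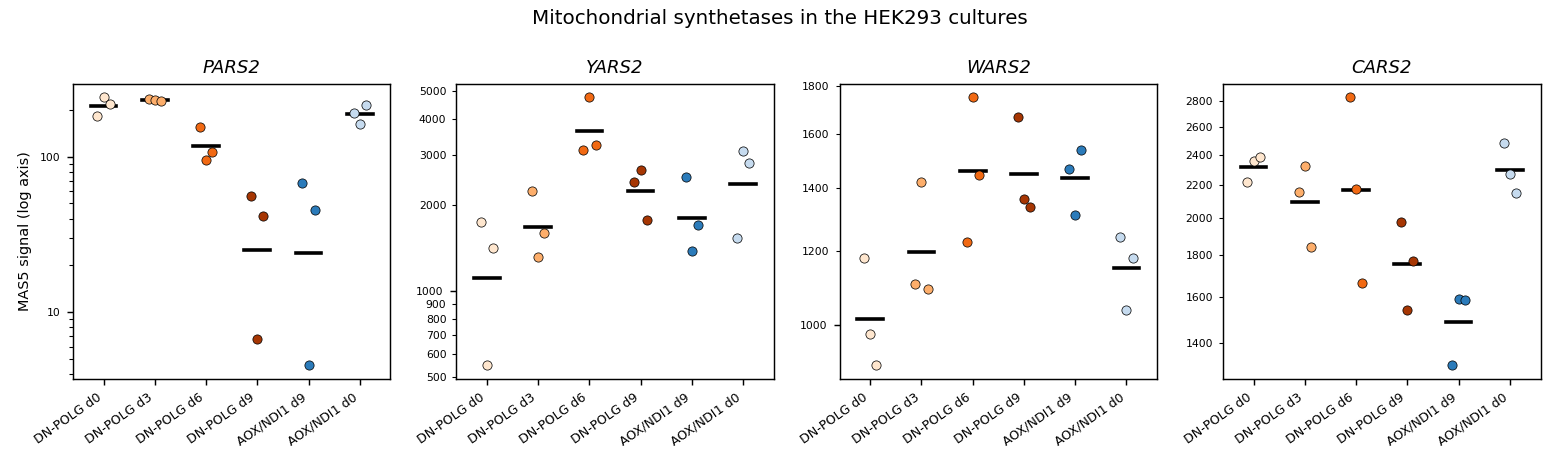
MAS5 signal (arbitrary units, log axis) of PARS2, YARS2, WARS2 and CARS2 in the 6 HEK293 groups (d, day). Points are the 3 cultures and horizontal lines the mean of the log2 signals; PARS2 is at 55.6 or less in all DN-POLG day 9 cultures against 183 or more at day 0.

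The other mitochondrial synthetases spread around 0 at day 9. YARS2, for tyrosine, read 2401, 2645 and 1765 at day 9 against 1746, 550 and 1409 at day 0, above it in every culture, but the change of 1.02 did not pass (95% interval 0.18 to 1.85). Replicate 2 of day 0 was far below the others. WARS2, for tryptophan, read 1671, 1365 and 1337 against 1178, 977 and 905, with 0.52 on its brightest probe set, not passing. A second WARS2 probe set passed, at 0.74 (adjusted p = 0.0346). CARS2, for cysteine, read 1982, 1540 and 1770 against 2220, 2358 and 2385, below day 0 in every culture, with a change of -0.40 (95% interval -0.83 to 0.02). The other 11 mitochondrial members ran between -0.32 for RARS2 and 0.34 for SARS2, and none passed.

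Across the 17 cytosolic genes, 15 had a positive log2 fold change at day 9, and 9 had all day 9 cultures above all day 0 cultures, while 1 had all below. Of the mitochondrial genes, 9 of 15 were positive, 4 were above in every culture and 2 below. Over all genes tested, the groups were apart with day 9 above in 9.24% and below in 14.6%. For 11 amino acids the symbols of the cytosolic and mitochondrial enzymes differ only in the final digit. In 8 of these pairs the cytosolic one had the higher log2 fold change. The enzymes for phenylalanine, glutamate and proline lack such matching symbols and were left out. The difference within pairs was not tested.

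**Figure D3:**
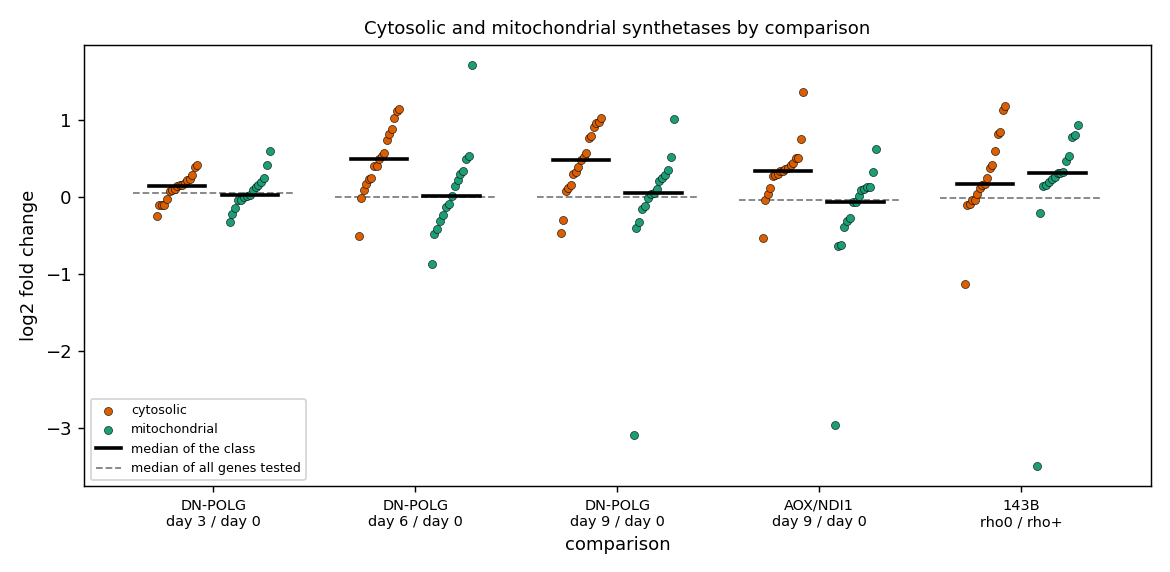
Log2 fold change of each synthetase gene, cytosolic left and mitochondrial right, in 5 comparisons. Each point is a gene, thick bars are class medians and dashed lines the median of all genes tested; at DN-POLG day 9 the cytosolic median is 0.48 and the mitochondrial 0.06.

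The time course was read from the same day 0 cultures at each day, so the values of days 3, 6 and 9 are not independent. At day 3, no member passed by limma, and no gene at all did (0% of 11723). At an unadjusted p of 0.05, 0 members were called, against 2.3% of all genes, and the methods' ANOVA also called none. The cytosolic median was 0.14, with the largest values for CARS1 (0.41), SARS1 (0.39) and LARS1 (0.29), and the mitochondrial median was 0.02, against 0.06 for all genes. CARS1 read 6720, 5870 and 7236 at day 3, already above the 4668 to 5330 of day 0. SARS1 read 6084, 5713 and 6937, above the 4390 to 5212 of day 0. YARS2 had 0.60 and AARS2, the alanyl enzyme of mitochondria, 0.41, with overlapping cultures, and HARS2, for histidine, -0.32. In all, 3 cytosolic genes (CARS1, SARS1 and NARS1) and 0 mitochondrial genes were above day 0 in every culture, and HARS1 and LARS2 were below, against 3.78% and 1.49% of all genes.

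At day 6, 3 cytosolic genes passed, SARS1, YARS1 and GARS1, and 1 mitochondrial gene, YARS2, all higher, against 1.38% of all genes called, 0.239% higher and 1.14% lower. SARS1 read 14451, 8293 and 9625 at day 6 against 4390, 5212 and 4732 at day 0 (1.14, adjusted p = 0.0249), while its other probe set gave 0.30 (adjusted p = 0.608). YARS1 read 19802, 9180 and 10040 against 5189, 6161 and 5668 (1.11, adjusted p = 0.0376), while its other probe set gave -0.063. GARS1 read 14685, 9461 and 8612 against 4539, 6561 and 4728 (1.03, adjusted p = 0.0352). Replicate 1, the array with the high ACTB ratio, was the highest of its group in each of these genes. It was the highest in 13 of 17 cytosolic and 6 of 15 mitochondrial genes.

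YARS2 read 3109, 4771 and 3241 at day 6 against 1746, 550 and 1409 at day 0, a change of 1.72 (SE 0.39, adjusted p = 0.0411), and here replicate 1 was the lowest. WARS1 (0.88) and CARS1 (0.81) were above day 0 in every culture without passing, and RARS1 had the lowest cytosolic value, -0.50, which was -0.042 without replicate 1. The cytosolic median was 0.50 and the mitochondrial 0.01, against -0.01 over all genes. In all, 6 cytosolic and 2 mitochondrial genes were above day 0 in every culture and 0 and 1 below, against 3.99% and 7.9% of all genes. PARS2 read 156, 94.8 and 107, below every day 0 culture, with a change of -0.87 that did not pass. NARS2 (-0.48) and RARS2 (-0.42) also had low values, and in both replicate 1 was the lowest array. Without replicate 1 of day 6, none of the 4 calls passed. SARS1 was then at 0.91, GARS1 at 0.80, YARS1 at 0.76 and YARS2 at 1.83. Among all genes, 15 were higher and 57 lower in that setting, against 28 and 134 with every array. With the replicate number as a block no member passed, and among all genes 6 were higher and 6 lower. Without replicate 3 of day 0 there were 0 calls (7 higher and 8 lower among all genes). Without replicate 1 of day 0 there was 1 call (21 higher and 44 lower). The part of RNA quality in these values was not tested.

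Genes that act with the synthetases were read from lists chosen for this report. Of 10 amino acid response genes tested, ASNS, the asparagine synthetase (1.66), NUPR1, a stress-induced chromatin protein (3.36), and DDIT3, a transcription factor (1.14), were higher at DN-POLG day 9 and none was lower. Over all genes 1.37% were higher and 6.65% lower. ATF4, also among the 10, read 38391, 26808 and 35055 at DN-POLG day 9 against 21089, 32343 and 17810 at day 0. These values overlapped and ATF4 did not pass. ASNS (1.50) and NUPR1 (3.36) had passed at day 6, where 0.239% of all genes were higher. In AOX/NDI1 cells at day 9, 0 of these 10 were higher and CEBPB, a partner of ATF4, was lower, with -0.71. Over all genes 1.69% were higher and 10.6% lower there. NUPR1 lay above day 0 in every AOX/NDI1 day 9 culture (731, 534 and 276 against 159, 260 and 232). At day 0, 4 of the 10 were already higher than in DN-POLG cells at an unadjusted p of 0.05, against 3.23% of all genes. The response to day 9 differed between the cell types in none of the 10 at the threshold. At an unadjusted p of 0.05, 4 were lower in AOX/NDI1 cells, against 2.02% of all genes. Of 15 genes that mature or modify mitochondrial tRNA, 3 were lower at DN-POLG day 9: TRMT10C, a subunit of mitochondrial RNase P (-1.32), TRMU, which thiolates tRNA (-1.44), and PUS1, a pseudouridine synthase (-0.65). Over all genes 6.65% were lower. In AOX/NDI1 cells 4 of 15 were lower, TRMT10C (-1.89), TRMU (-1.21), PUS1 (-0.89) and TRMT61B, a methyltransferase (-1.46), against 10.6% of all genes. MTFMT, which formylates the initiator tRNA, was also lower there, with -0.74 (adjusted p = 0.0273). None of 8 mitochondrial translation factors tested passed at day 9 in either cell type. Of all genes, 8.02% passed in DN-POLG and 12.3% in AOX/NDI1 cells. The count of translation factors was also 0 at an unadjusted p of 0.05, against 20.7% and 26.8% of all genes.

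In AOX/NDI1 cells at day 9 against their own day 0, PARS2 was the only member that passed, against 12.3% of all genes (1.69% higher and 10.6% lower). At an unadjusted p of 0.05, 5 members were higher and 2 lower, against 7.98% and 18.8% of all genes. In all, 10 cytosolic and 4 mitochondrial genes lay above day 0 in every culture, and 1 and 5 below, against 25.2% and 30.1% of all genes. The cytosolic median was 0.34 and the mitochondrial -0.06, against -0.04 over all genes.

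VARS1, the valyl enzyme, read 2078, 1970 and 1800 at day 9 against 838, 709 and 735 at day 0, with the groups far apart. Its change of 1.36 did not pass (adjusted p = 0.0703), and a dimmer VARS1 probe set gave 0.36 (adjusted p = 0.768), so the probe sets differ. WARS1 read 4996, 4550 and 4434 against 2671, 2854 and 2739 (0.76, adjusted p = 0.0658). YARS1 read 10498, 9797 and 8160 against 6905, 6886 and 6197, with 0.50 (adjusted p = 0.205). CARS2 read 1316, 1588 and 1583 against 2479, 2272 and 2152, below in every culture, with -0.62 (adjusted p = 0.0523). MARS2, for methionine, read 319, 244 and 270 against 411, 388 and 491 (-0.63), and SARS2, for serine, had 0.62; neither passed.

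Without replicate 1 of DN-POLG day 6, whose spread the HEK293 arrays share in the model, 8 members passed in AOX/NDI1 cells: VARS1, WARS1, YARS1, TARS1 and SARS2 higher, and PARS2, CARS2 and MARS2 lower. Over all genes 18.3% passed in that setting, against 12.3% with every array. Without replicate 3 of AOX/NDI1 day 9, the array with the low POLG signal, only PARS2 passed, and the same held with every array.

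The response to day 9 was also compared between AOX/NDI1 and DN-POLG cells as an interaction. No member passed by limma, nor did any gene (0% of 11723); at an unadjusted p of 0.05, 1 member was higher and 3 lower, against 0.947% and 2.02% of all genes. The methods' ANOVA called none either. SARS1 read 9509, 7792 and 6476 in AOX/NDI1 cells at day 9 against 6674, 6261 and 6331 at day 0, and its response was -0.74 relative to that of DN-POLG cells (95% interval -1.41 to -0.07). On its other probe set the difference was -0.32 (SE 0.37). For CARS1 the difference was -0.68 (-1.32 to -0.03), for GARS1 -0.45 (-1.12 to 0.22) and for YARS1 -0.47 (-1.21 to 0.27). For YARS2 it was -1.41 (-2.59 to -0.22) and for HARS1, the histidyl enzyme, 0.63 (0.02 to 1.24). For WARS1 it was -0.15 (-0.92 to 0.62) and for PARS2 0.13 (-2.25 to 2.51). These intervals are not adjusted for the number of genes.

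At day 0, AOX/NDI1 and DN-POLG cells did not differ in any member by limma, while 0.00853% of all genes passed, which is 1 gene. At an unadjusted p of 0.05, 2 members were higher and 1 lower in AOX/NDI1 cells, against 3.23% and 1.77% of all genes. SARS1 read 6674, 6261 and 6331 in AOX/NDI1 cells against 4390, 5212 and 4732 in DN-POLG cells, above it in every culture, with 0.43 (95% interval -0.04 to 0.90). CARS1 was likewise above, with 0.41 (-0.05 to 0.86), and LARS1 with 0.54 (0.01 to 1.07). In all, 6 of the 32 members were above in every culture and 4 below, against 8.85% and 6.88% of all genes.

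In 143B cells, 3 members passed between rho0 and rho+: RARS1 was higher, and SARS1 and WARS2 were lower. These 3 are 9.38% of the members, against 8.24% of all 11107 genes called, 2.73% higher and 5.51% lower. The median log2 fold change was 0.16 over the cytosolic and 0.30 over the mitochondrial class, and -0.01 over all genes. Of the mitochondrial genes 13 of 15 were positive, and of the cytosolic 12 of 17.

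WARS2, the mitochondrial tryptophanyl-tRNA synthetase, read 109, 141 and 331 in rho0 cells against 2090, 1647 and 2146 in rho+ cells. Even the highest rho0 culture, replicate 3, was far below the lowest rho+ culture, and the log2 fold change was -3.50 (SE 0.41, adjusted p = 0.00538). A second WARS2 probe set gave -2.79 (adjusted p = 0.00770). The call held without any single array (adjusted p = 0.000382 to 0.0367).

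SARS1 read 1917, 1555 and 2628 in rho0 cells against 4090, 3988 and 5003 in rho+ cells, below in every culture, with -1.13 (SE 0.27, adjusted p = 0.0440). Its second probe set gave -2.28 (adjusted p = 0.0110). RARS1, the arginyl enzyme, read 1601, 1813 and 1992 against 777, 772 and 930, above in every culture, with 1.12 (SE 0.23, adjusted p = 0.0271). Both calls held without replicate 3 of rho0 and were lost without any other single array. In the settings that lost them, limma gave RARS1 an adjusted p of 0.0689 to 0.119 and SARS1 0.104 to 0.158.

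Several members lay apart between the lines without passing. FARSA, a subunit of the phenylalanyl enzyme, read 1563, 2080 and 995 in rho0 against 523, 617 and 868 in rho+ cells (1.18, adjusted p = 0.0698). FARSB, the other subunit, read 3361, 3215 and 3517 against 2062, 1685 and 1991 (0.82, adjusted p = 0.0608). All rho0 cultures were above all rho+ cultures in both subunits and in the next 4 genes. EARS2, the mitochondrial glutamyl enzyme, read 482, 546 and 486 against 254, 325 and 221 (0.94, adjusted p = 0.0543). CARS2 read 802, 624 and 497 against 381, 358 and 364 (0.78). MARS2 read 3457, 2632 and 1511 in rho0 against 1284, 1420 and 1433 in rho+ cells (0.80), with replicate 3 of rho0 the lowest. HARS1 read 2027, 1741 and 1394 against 1063, 995 and 803 (0.84).

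HARS1 and HARS2 are neighbours read in opposite directions; HARS2 had 0.31 here. VARS1 passed on a dimmer probe set only, at 1.31 (adjusted p = 0.0185). In all, 5 cytosolic and 5 mitochondrial genes were above in every rho0 culture and 1 of each below, against 16.9% and 17.5% of all genes. GARS1 (0.16), YARS1 (0.41), CARS1 (-0.10), WARS1 (-0.04) and NARS1 (0.24), which had passed in DN-POLG cells, overlapped between rho0 and rho+.

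Replicate 3 of rho0 was the odd array in several of these genes, and without it 9 members passed: FARSA, FARSB, HARS1, RARS1, CARS2, EARS2 and MARS2 higher, SARS1 and WARS2 lower. Those 9 are 28.1% of the members, and 26.8% of all genes passed in the same setting. With every array set to the same median signal, 7 passed, 6 of them higher, and SARS1 was not among them. That scaling moves the median of all genes to 0.30 and turns the split over all genes to 980 higher and 382 lower, against 303 higher and 612 lower as reported. Relative to all genes the cytosolic median was then 0.17 above and the mitochondrial 0.31 above, as before. The ACTB ratio also differed between the lines, and its part in these values was not tested.

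Of 11 amino acid response genes tested in 143B, CHAC1, a glutathione-degrading enzyme (-1.61), TRIB3, a pseudokinase (-1.19), SESN2, a leucine sensor (-1.46), and VLDLR, a lipoprotein receptor (-1.42), were lower in rho0 cells. Over all genes 5.51% were lower. CHAC1 and SESN2 lay under the filter signal of 87.8 in 2 of 3 rho0 cultures each, so the size of their fall is uncertain. NUPR1 was higher, with 2.15, where 2.73% of all genes were higher. Its signal was under the filter in all 3 rho+ and in 2 of 3 DN-POLG day 0 cultures, so the size of its change is uncertain. Of 14 mitochondrial tRNA maturation genes tested none passed by limma. At an unadjusted p of 0.05, 1 was higher and 1 lower, against 13% and 15.1% of all genes.

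**Figure D4:**
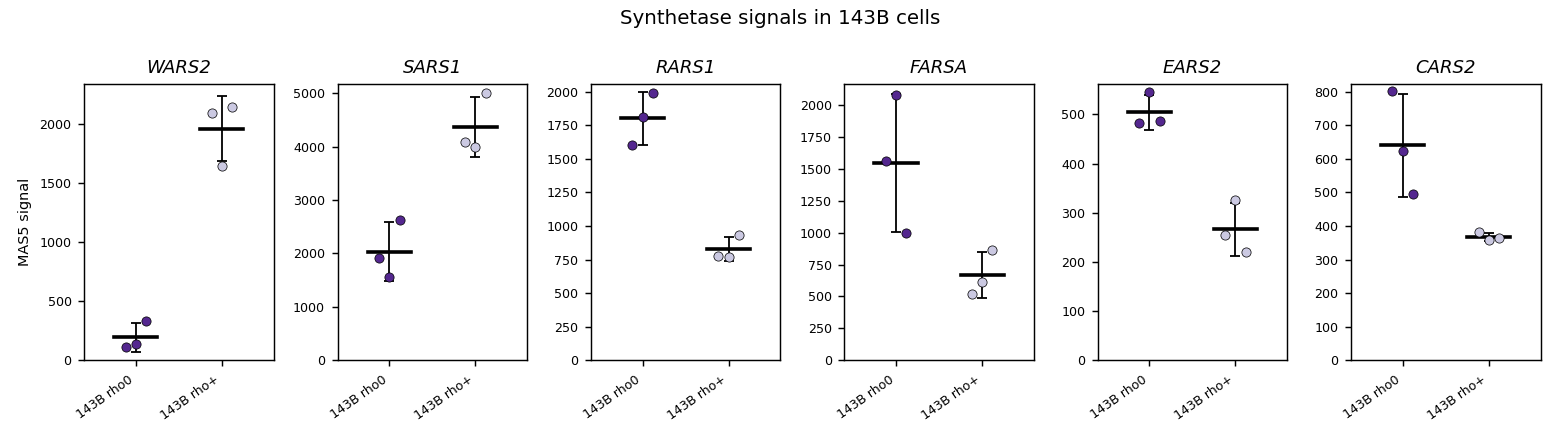
MAS5 signal (arbitrary units, axes from 0) of 6 synthetase genes in 143B rho0 (left) and rho+ (right). Points are the 3 cultures, horizontal lines the mean and whiskers the SD; WARS2 read 109 to 331 in rho0 and 1647 to 2146 in rho+.

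**Figure D5:**
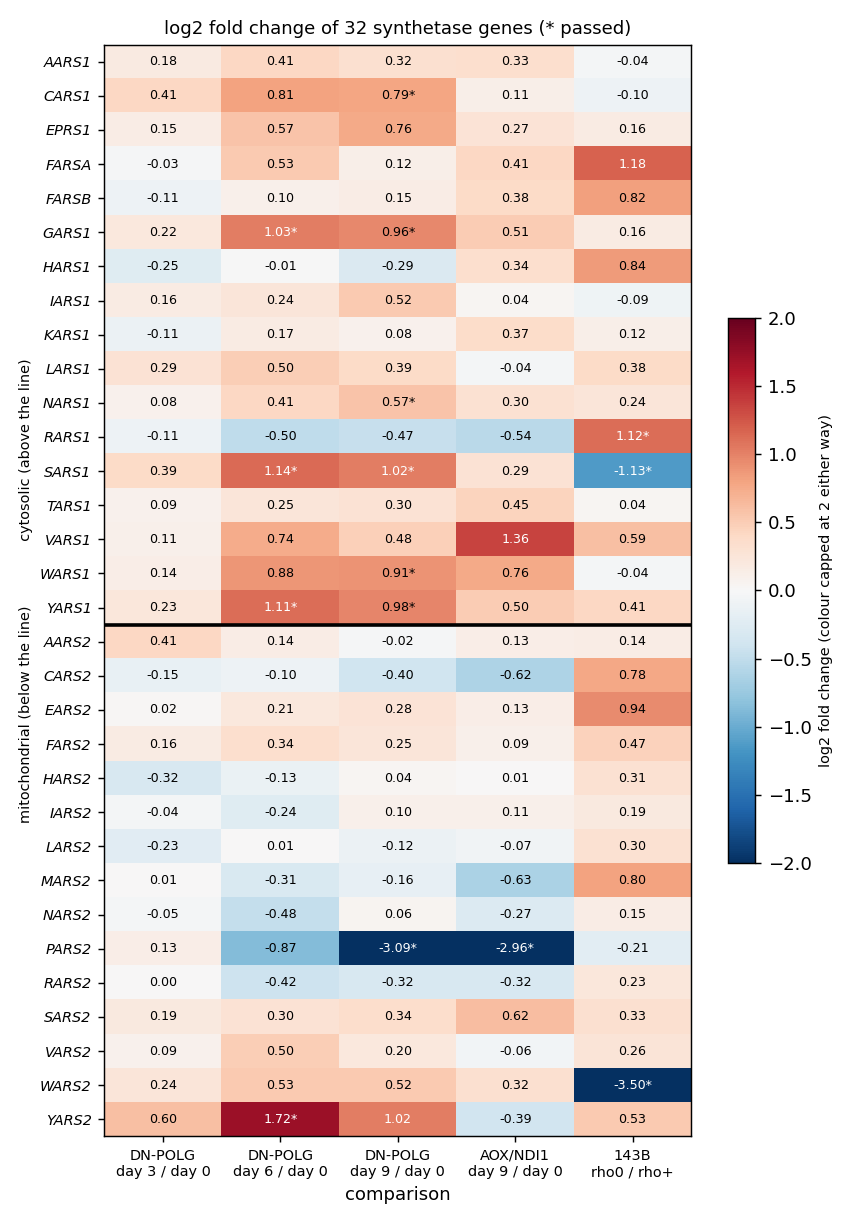
Log2 fold change of the 32 synthetase genes (rows, cytosolic above the line and mitochondrial below) in 5 comparisons (columns). Colour runs from blue (lower) to red (higher) and an asterisk marks an adjusted p of at most 0.05; SARS1 is 1.02 at DN-POLG day 9 and -1.13 in 143B rho0.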

How the data were processed

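The study measured total RNA of 24 cultures on Affymetrix HG-U133 Plus 2.0 arrays. The deposited intensity values are MAS5 signals, made by the authors with Affymetrix Expression Console and scaled so that the trimmed mean signal is 500.1 on each array. They were used as log2, with nothing added and no further normalization. Gene names came from the platform annotation: 41091 of 54675 probe sets carry 1 symbol, 1801 several and 11777 none. Probe sets were kept where their average reached the median log2 value of the line (6.06 in HEK293, 6.46 in 143B), which left 22240 in HEK293 and 22505 in 143B.

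Group contrasts were fitted with limma 3.58.1 in R 4.3.3 (lmFit and eBayes), 1 model over the 18 HEK293 arrays and another over the 6 of 143B, which share no spread, and tested on simulated data. P-values were two-sided and adjusted by Benjamini-Hochberg. The brightest of several probe sets was used per gene. Named are the members that passed in any of 7 comparisons, the 3 of each class with the largest change in each, GARS1 and KARS1. AARS1, IARS1, LARS2, HARS1, FARSB, TARS1, EPRS1 and SARS2 were named after their values were seen. The members and lists were chosen with earlier results of these data known. Arrays carry no count of molecules, so their number, 3 per group, limits the precision. The methods describe 3 independent biological replicates per group; in HEK293 a replicate is a culture round from its own starter culture, carried through all days, which ties same-numbered arrays. P-values measure the spread between these cultures.

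Same-numbered arrays deviated together between DN-POLG day 0 and day 3 (correlation 0.35 to 0.53) and day 6 (0.17 to 0.22), but not day 9 (-0.35 to 0.04), between AOX/NDI1 days (-0.05 to 0.08) or in 143B (-0.18 to 0.08). Alternatives were other scalings, filters, probe set choices, tests and models, and each array left out. Leaving out replicate 1 of DN-POLG day 6 elsewhere, a model over all 24 arrays and the motif TGATGCAA were added after seeing the data.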

Additional observations from a re-analysis of the deposited data

Results flagged for a closer look

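The change in 143B rho0 cells was set against that of the HEK293 cells at day 9 in 1 limma model over all 24 arrays, added after seeing the data, with a term for the difference of the changes. The lines differ in origin, in how mtDNA was lost and in the ACTB ratio of their arrays, which cannot be told apart. Against DN-POLG day 9, 11% of all 11485 genes differed, and so did 5 of the 32 synthetases. WARS2 was lower in rho0 cells and above day 0 in every DN-POLG day 9 culture, a difference of -4.02 (standard error 0.41, adjusted p = 2.62e-06 from limma). SARS1 differed by -2.15 (standard error 0.33, adjusted p = 0.000413 from limma), being lower in rho0 and higher at DN-POLG day 9. RARS1 differed by 1.59 (adjusted p = 0.0179 from limma), CARS2 by 1.18 (adjusted p = 0.0160 from limma) and HARS1 by 1.14 (adjusted p = 0.0206 from limma), all 3 positive in rho0 cells and negative at DN-POLG day 9. None of these 3 passed at DN-POLG day 9 on its own (adjusted p = 0.431, 0.260 and 0.455 from limma), nor did WARS2. The RARS1 values overlapped with day 0 there. CARS2 and HARS1 did not pass in 143B either.

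Against AOX/NDI1 day 9, 11.2% of all genes differed, and a similar share of the synthetases did, 4 of the 32: WARS2 by -3.82 (adjusted p = 4.95e-06 from limma), RARS1 by 1.66 (adjusted p = 0.0138 from limma), SARS1 by -1.41 (adjusted p = 0.0102 from limma) and CARS2 by 1.40 (adjusted p = 0.00510 from limma). None of these 4 passed in AOX/NDI1 cells on its own. MARS2 was above rho+ in every rho0 culture and below day 0 in every AOX/NDI1 day 9 culture, but its difference of 1.43 did not pass (adjusted p = 0.107 from limma).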

How the results depend on the processing

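Counts of members that passed moved with the processing, while class medians mostly did not: 259 of 272 alternative medians lay within the spread between replicates. Pairs in parentheses in this paragraph count the genes called higher and lower over all genes. At DN-POLG day 6 (28 and 134) the 4 calls became 0 without the signal filter (4 and 7). They also became 0 with probe sets averaged (6 and 18) and with the replicate block (6 and 6). With only the arrays of the comparison 0 passed (0 and 1). Without _x_at and _s_at probe sets 2 passed (31 and 164), where YARS1 was at -0.063 because its other probe set stands in. Leaving out an array gave 0 to 3. At day 9 (161 and 779) the 7 calls became 4 by quantile normalization (201 and 664) and by the replicate block (109 and 603). They became 2 without the filter (90 and 448) and 11 with array weights (24.6% of all genes). With only the arrays of the comparison 0 passed (1.51% of all genes), and with an array left out 2 to 6. In AOX/NDI1 cells (198 and 1241) the single call became 4 with arrays set to the same median (315 and 714). Averaging probe sets also gave 4 (204 and 857), and 0 passed without the filter (89 and 813). Without _x_at and _s_at probe sets 2 passed (220 and 1217). The methods' ANOVA gave 3 (259 and 1182), as did an intensity trend (267 and 1261). Array weights gave 20 (where 44.4% of all genes passed) and only its own arrays 10 (35.4%). Without replicate 1 of DN-POLG day 6 it was 8 (18.3%), and with an array left out 0 to 1. At day 0 between the cell types, array weights gave 4 (4.28% of all genes). In 143B (303 and 612) the 3 calls became 7 with arrays set to the same median (980 and 382). They became 1 without the filter (42 and 190) and with the replicate block (92 and 276). Averaging probe sets gave 5 (272 and 586), ANOVA 0 (18 and 35) and array weights 10 (37.8% of all genes). With an array left out 1 to 9 passed. The interaction and day 3 kept 0 calls in each alternative. The cause of these shifts was not tested. Setting arrays to one median moved the median of all genes to 0.10 at DN-POLG day 6 and in AOX/NDI1 cells, where calls over all genes then split 30 higher and 18 lower (28 and 134 as reported) and 315 and 714 (198 and 1241 as reported). The mitochondrial median in AOX/NDI1 cells was 0.08 with it and -0.06 as reported.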
